A study of Mus musculus with 3 samples.

Results

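The miRNAs described here are those of the imprinted Dlk1-Dio3 region of the mouse, read from 105 of the 1265 mouse miRNA probes on each of 3 arrays. A probe was taken where its name holds a miRNA number from a list for this region, with no measured value in the rule. The list itself was chosen with earlier results of these data known. Probes carry 1 spot each, and 1 of the 105 is shared by miR-3070a-5p and miR-3070b-5p. The probes belong to 54 hairpin genes, and 53 of these lie among the 61 miRNA genes annotated between Dlk1 and Dio3 on chromosome 12 (GRCm38.p6). The exception was miR-496b, whose gene is on chromosome 19 and which was undetected on every array. Of the 105 probes, 51 are for 5p arms, 52 for 3p arms and 2, miR-882 and miR-496b, name no arm.

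The study asked which miRNAs Wnt4 over-expression and differentiation change in C2C12 cells, a line of mouse myoblasts that fuse into myotubes when the serum is lowered. C2C12-PR cells were parental cells proliferating in DMEM that held 10% fetal bovine serum. Parental cells in differentiation medium, with the serum changed to 2% horse serum for a time not given for the arrays, made up C2C12-DF. W4-08-PR cells were a single stable subline of C2C12 that carries a V5-tagged Wnt4 driven by the CMV promoter together with a blasticidin resistance gene, grown in the 10% serum medium. The paper states that this subline can form myotubes spontaneously in such medium, so W4-08-PR need not be undifferentiated. Values on the 3 arrays are given in the order C2C12-PR, C2C12-DF, W4-08-PR unless stated. Each condition was hybridized to 1 single-colour 3D-Gene array, so there are no replicates, no test between conditions was possible, and clone, selection and Wnt4 cannot be told apart in W4-08-PR.

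The Dlk1-Dio3 region is expressed according to the parent of origin. The protein-coding genes Dlk1 (preadipocyte factor 1), Rtl1 (a retrotransposon-derived gene needed in the placenta) and Dio3 (an enzyme that inactivates thyroid hormone) are read from the paternal chromosome. The miRNAs lie within long non-coding transcripts, among them Meg3, Rian and Mirg, that are read from the maternal chromosome. Some of these miRNAs (miR-431, miR-433, miR-127, miR-434 and miR-136) are cut from a transcript antisense to Rtl1 and pair fully with its mRNA. The miRNAs of the region are known from brain, placenta, embryo and regenerating muscle, and in muscle the transcription factor MEF2A has been described as an activator of the locus.

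RefSeq holds a mature sequence (GRCm38.p6) for 98 of the 105 probes, and the following are shown 5′ to 3′ with the seed, bases 2 to 8, in capitals. The first set is the miRNAs detected on all 3 arrays that have an entry, since the comparisons between arrays rest on them.
miR-431-3p (chr12:109590502-109590523, + strand): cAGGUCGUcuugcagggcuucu
miR-1188-3p (chr12:109611877-109611901, + strand): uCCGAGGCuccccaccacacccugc
miR-370-3p (chr12:109618305-109618326, + strand): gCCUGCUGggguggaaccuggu
miR-494-3p (chr12:109715367-109715388, + strand): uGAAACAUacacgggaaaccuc
miR-667-5p (chr12:109720020-109720044, + strand): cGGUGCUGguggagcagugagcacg
miR-3072-5p (chr12:109747893-109747914, + strand): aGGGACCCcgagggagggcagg
miR-3072-3p (chr12:109747928-109747949, + strand): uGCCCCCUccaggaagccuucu
These 7 sequences have 7 different seeds, and no other mouse miRNA in the reference shares any of them. The nearest other miRNA with both a probe and a sequence lay 7 to 9 single-base edits away from each. A sequence was available for 1024 of the 1265 miRNA probes, and the others were not compared.

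A second set shows miRNAs for which the region is well known and which were detected on 1 array at most, for contrast with the first set.
miR-127-3p: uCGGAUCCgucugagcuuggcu
miR-136-5p: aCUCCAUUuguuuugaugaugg
miR-379-5p: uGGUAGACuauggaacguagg
miR-411-5p: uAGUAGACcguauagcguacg
miR-376a-3p: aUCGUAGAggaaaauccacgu
miR-376b-3p: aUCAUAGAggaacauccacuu
miR-434-3p: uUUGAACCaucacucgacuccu
miR-376a-3p and miR-376b-3p belong to 1 family but their printed seeds differ. The 98 sequences hold 91 different seeds, and 7 seeds are shared by a pair of members each, such as GGUAGAC of miR-379-5p and miR-1193-5p.

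Most of the region's miRNAs were not distinguished from background in any of the 3 cultures. Brightness is given as units above background, the spot intensity less a mean of blank spots from which 5% were trimmed at each end. Detected probes are those with a processed value from the authors, and these began at 11.9, 10.8 and 9.77 units. At this limit 9 of the 105 probes (8.57%) were detected on all 3 arrays, against 277 of the 1265 (21.9%), and 72 (68.6%) were detected on none, against 56.3% of all miRNA probes. Another 3 were detected on 2 arrays and 21 on 1 array.

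On C2C12-PR 12 of the 105 probes (11.4%) were detected, on C2C12-DF 17 (16.2%) and on W4-08-PR 25 (23.8%). Among the 1160 other miRNA probes the shares were 28.2%, 30.4% and 39.0% in the same order, so both sets had their highest share on W4-08-PR. With other limits the region's counts lay closer together. With a common height above background on all arrays they were 12, 14 and 15 (11.4%, 13.3% and 14.3%). The shares over all miRNA probes were then 26.8%, 27.4% and 32.9%. With the 99th percentile of the blank spots the counts were 9, 9 and 10 (8.57%, 8.57% and 9.52%), against 19.3%, 21.9% and 25.9% of all miRNA probes. Blank spots passed the authors' limit at 7.15%, 6.01% and 6.85%, rates at which 7.51, 6.31 and 7.19 of 105 probes would pass. Of the 24 negative control spots 3, 4 and 6 passed the authors' limit. Detection on 1 array alone thus has to be read against the rate at which empty spots passed.

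The middle of the distribution lay close to background. The median of the 105 probes was 2.29, 2.71 and 5.19 units, against 2.95, 3.66 and 6.06 for the other miRNA probes. The region differed more in its bright tail, where its 90th percentile was 14.3, 15.0 and 15.4 units and that of the other probes 93.1, 103 and 118. On each array 3 region probes reached 100 units, among 112, 123 and 130 miRNA probes that did.

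**Figure D1:**
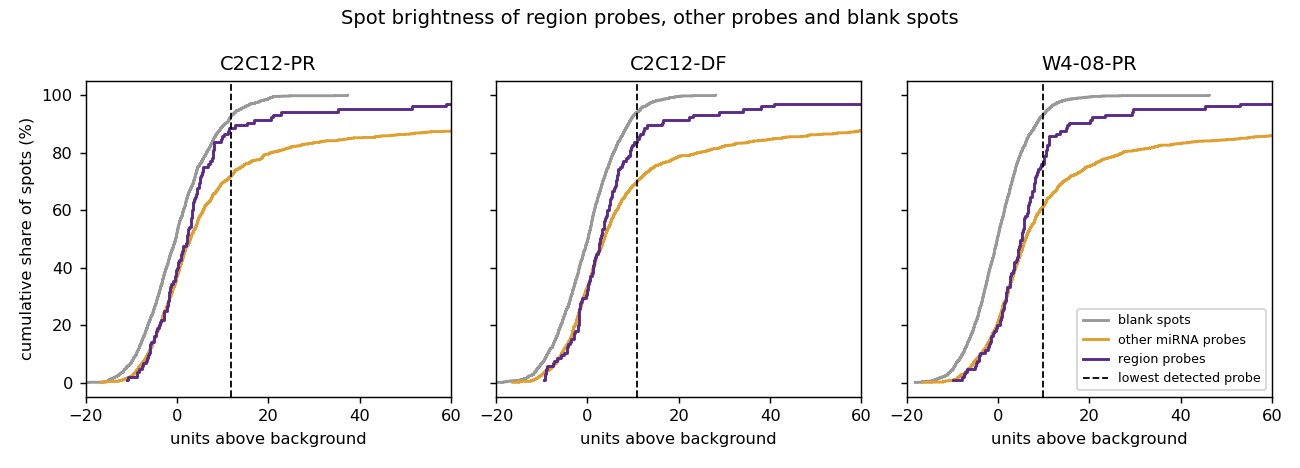
Cumulative share of spots (%) by brightness above background (units) on each array, for the region probes, the other miRNA probes and the blank spots, with a dashed line at the lowest detected probe. The region's curve runs beside that of the other miRNA probes near background, with medians of 2.29, 2.71 and 5.19 units, and above the dashed line it lies between the other probes and the blank spots.

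The 72 probes detected on no array had medians of 0.349, 1.07 and 2.71 units and ranged from -10.8 to 11.3 on C2C12-PR, from -9.49 to 10.1 on C2C12-DF and from -9.80 to 9.39 on W4-08-PR. As a description, Spearman's rho of their brightness between arrays was 0.45 for C2C12-PR with C2C12-DF, 0.044 for C2C12-PR with W4-08-PR and 0.28 for C2C12-DF with W4-08-PR, over 72 probes. Blank spots at fixed places on the slide gave 0.37, 0.29 and 0.29 over 1664 spots, so spots without a probe also kept part of their order. For an undetected probe the arrays give an upper limit of brightness only, and absence of the miRNA was not shown.

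Along the chromosome the detected miRNAs did not form 1 block. The region was divided by the order of its genes, and the largest run, from Mir379 to Mir410 (72 probes), had 3 probes detected on all arrays and 15 on at least 1. In that run 8.33%, 6.94% and 13.9% of probes were detected on the 3 arrays. Its members detected on all arrays were miR-494-3p, miR-487b-3p and miR-667-5p.

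Before this run, Mir431 to Mir136 (12 probes) had 1 probe detected on all arrays, miR-431-3p, and 4 on at least 1. The stretch from Mir493 to Mir3070b (11 probes) had 1 on all arrays, the joint miR-3070 probe, and 7 on at least 1, with 1, 6 and 5 detected on C2C12-PR, C2C12-DF and W4-08-PR. Mir341 to Mir882 (7 probes) had 2 on all arrays, miR-1188-3p and miR-370-3p, and 5 on at least 1. Mir3072, which lies after the long run between Mir410 and Mir1247, had both of its probes detected on all arrays.

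**Figure D2:**
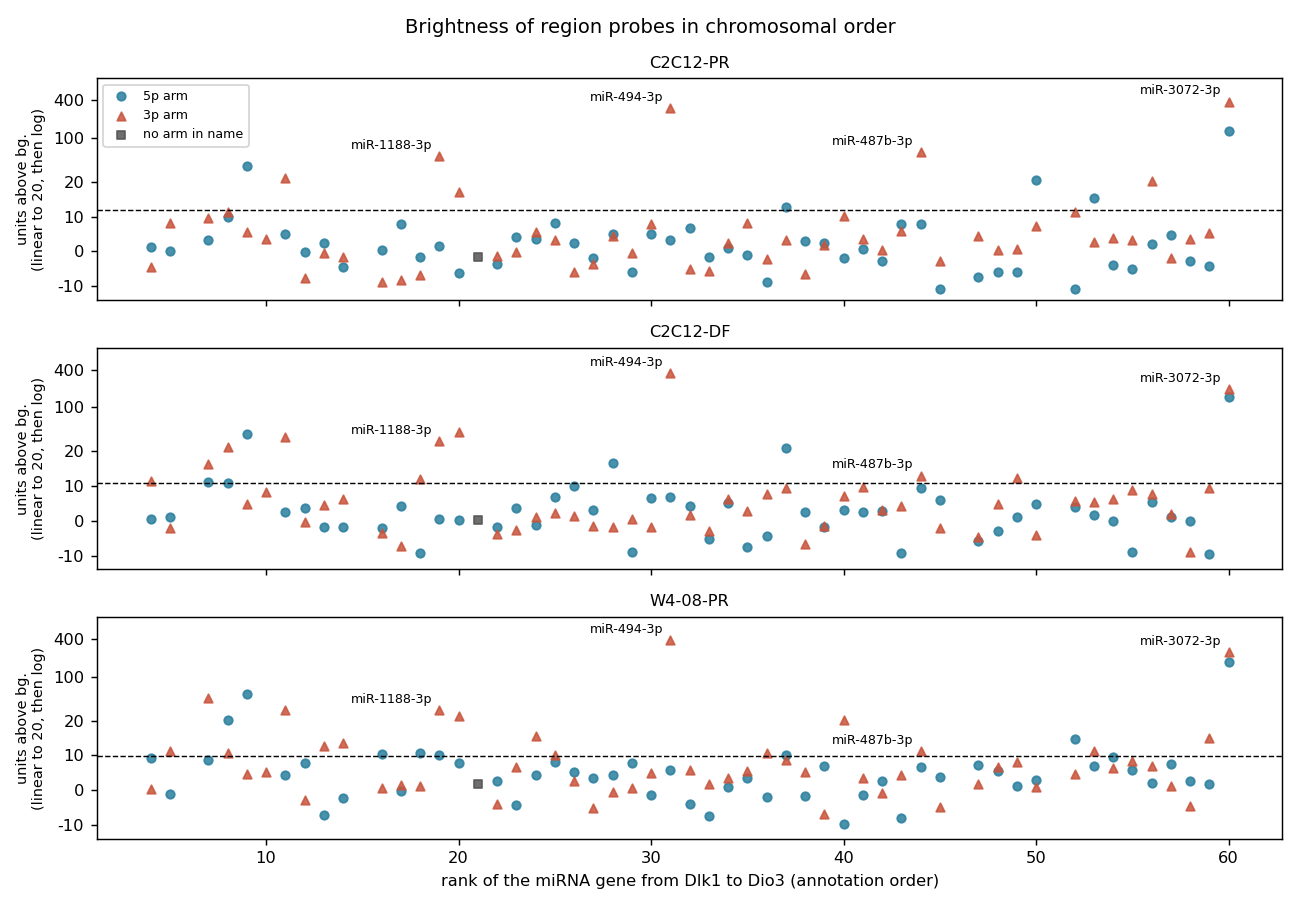
Brightness above background (units, linear to 20 and log above) of each region probe on the 3 arrays, by the rank of its gene from Dlk1 to Dio3, with 5p arms as circles, 3p arms as triangles and a dashed line at the lowest detected probe. Most points lie below the line, and the probes above 100 units on all arrays are those of miR-494-3p, miR-3072-5p and miR-3072-3p.

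Among the miRNAs antisense to Rtl1, 10 probes were read, of which 1 was detected on all arrays and 3 on at least 1. miR-127-3p was at -0.389, 4.62 and 12.7 units on C2C12-PR, C2C12-DF and W4-08-PR, and miR-434-3p at -1.74, 6.33 and 13.6 units, each detected on W4-08-PR alone. Both probes of miR-136 and of miR-433 were undetected throughout. The 6 probes of the miR-376 family, whose transcripts are known targets of RNA editing, had none detected on all arrays, and 1, miR-376b-3p, detected on W4-08-PR alone at 20.5 units. miR-134-5p, known in neurons for its part in the size of dendritic spines, was undetected at -5.97, -3.03 and 5.47 units.

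The region's 3 probes above 100 units came from 2 hairpins. miR-494-3p, which in muscle has been tied to mitochondrial biogenesis, was at 304, 352 and 389 units. Its log2 ratios were -0.10 ± 0.073 for W4-08-PR over C2C12-PR and 0.08 ± 0.12 for C2C12-DF over C2C12-PR. The first of these turned above 0 with median scaling (0.088), spike control scaling (0.22), no normalization between arrays (0.30) and the authors' processed values (1.06), so its direction was not settled. Here and below, ratios are of intensities corrected with the normexp background model and quantile-normalized over all miRNA probes. The ± is 1 technical SD from the spread of blank spots and spike controls, and it holds no biological variation.

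miR-3072-5p was at 129, 145 and 171 units on C2C12-PR, C2C12-DF and W4-08-PR, with log2 ratios against C2C12-PR of 0.03 ± 0.14 for C2C12-DF and -0.05 ± 0.094 for W4-08-PR, the latter above 0 under the same 4 settings. miR-3072-3p, from the other arm of the same hairpin, was at 384, 199 and 249 units. Its C2C12-PR value was the high one, 1.93-fold that of C2C12-DF and 1.54-fold that of W4-08-PR in units above background, and the 5p arm had its lowest value on that array. The hairpin is shown with its arms in capitals, the 5p arm first (chr12:109747878-109747960, + strand).
Mir3072: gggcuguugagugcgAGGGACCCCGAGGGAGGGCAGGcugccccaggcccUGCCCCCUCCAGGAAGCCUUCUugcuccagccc

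miR-487b-3p, which the study carried forward, was at 59.0, 13.0 and 11.1 units. In SD of all blank spots, untrimmed, these heights were 7.77, 1.90 and 1.73. The value was thus clear of background on C2C12-PR and just past the limit on the other arrays. In units above background C2C12-PR was 4.53-fold above C2C12-DF and 5.30-fold above W4-08-PR. The log2 ratios, which the offset of 50 draws toward 0 for dim probes, were -0.69 ± 0.19 for C2C12-DF over C2C12-PR and -0.79 ± 0.16 for W4-08-PR over C2C12-PR, short of the size of 1 used for a call. In the authors' processed values these ratios were -1.98 and -1.70. The paper also reports by RT-qPCR that its level was significantly lower in C2C12 cells in differentiation medium.

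miR-1188-3p was at 51.4, 28.8 and 29.3 units. It too had its highest value on C2C12-PR, with log2 ratios of -0.36 ± 0.18 and -0.40 ± 0.15 for C2C12-DF and W4-08-PR over C2C12-PR.

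The other 4 probes detected on all arrays had their lowest or middle value on C2C12-PR. The joint probe of miR-3070a-5p and miR-3070b-5p was at 35.4, 38.04 and 52.9 units on C2C12-PR, C2C12-DF and W4-08-PR, and cannot say which of its miRNAs was present. miR-431-3p was at 22.8, 34.2 and 29.6 units. Its hairpin's other arm, miR-431-5p, known in mouse muscle stem cells for acting on Pax7, was undetected at 4.95, 2.63 and 4.38 units. miR-370-3p was at 17.0, 40.8 and 23.5 units and miR-667-5p at 12.8, 22.3 and 10.0, so both had their highest value on C2C12-DF. The ratio of miR-370-3p for C2C12-DF over C2C12-PR was 0.37 ± 0.20 on the log2 scale, within 2 technical SD.

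**Figure D3:**
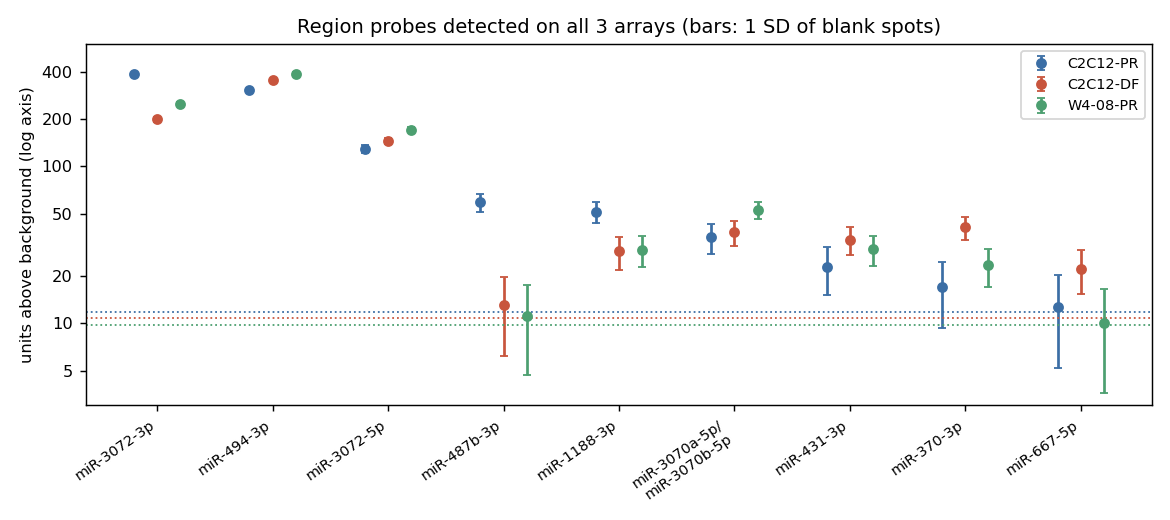
Brightness above background (units, log axis) of the 9 probes detected on all 3 arrays, 1 point per array, with 1 SD of all blank spots, untrimmed, as the bar and dotted lines at the lowest detected probe of each array. miR-487b-3p, miR-1188-3p and miR-3072-3p have their highest point on C2C12-PR, and miR-494-3p and miR-3072-5p have theirs on W4-08-PR. These units are not normalized between arrays. After quantile normalization the log2 ratios of miR-494-3p and miR-3072-5p for W4-08-PR over C2C12-PR were -0.10 and -0.05.

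For W4-08-PR over C2C12-PR, which sets Wnt4-over-expressing against parental proliferating cells, the only region miRNA called was miR-3072-3p, lower at a log2 ratio of -1.13 ± 0.074. A call needs a 2-fold difference, a log2 ratio of 1 or more in either direction, and a probe that is detected on the brighter of the pair. Over all miRNA probes with a ratio or bound, 396 in number, 2.02% were called lower and 0.758% higher. Of the 15 region probes with a ratio or a bound, 1 was called lower and 0 higher. Among the 9 detected on both arrays, 2 ratios were above 0 and 7 below, with a median of -0.10 against -0.03 over all probes detected on both. With spike control scaling or no normalization between arrays 5 were above 0 and 4 below. The ratios of miR-3072-3p, miR-487b-3p and miR-1188-3p were below 0 by more than 2 technical SD.

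The call of miR-3072-3p depended on how the arrays were brought to a common scale. With median scaling, spike control scaling or no normalization between arrays, 0 region miRNAs were called in this comparison. Over all probes 10, 6 and 5 were called lower and 8, 11 and 12 higher, in the same order of settings. With 75th percentile scaling the 1 called was miR-487b-3p, lower at -1.10, in place of miR-3072-3p, against 15 of all probes called lower. In the authors' processed values the ratio of miR-3072-3p was 0.08. Those processed values put the median of all probes at 1.04, and with them 11 region miRNAs were called higher and 1, miR-487b-3p, lower, against 235 and 3 of all probes. Measured against that shift, the median of the region's ratios, 1.06, was near that of all probes.

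For C2C12-DF over C2C12-PR, the comparison of differentiating with proliferating parental cells, miR-3072-3p was again the only call, at -1.01 ± 0.12. Over all 396 probes with a ratio or bound 3.79% were called lower and 0.758% higher, and of the 16 region probes 1 and 0. Bounds reached at most 0.17 and -0.22, so here too the offset kept dim probes from a call. Among the 9 detected on both arrays 5 ratios were above 0 and 3 below, with a median of 0.03 against 0.04 over all probes. miR-3072-3p lost the call under median, 75th percentile and spike control scaling, with no normalization between arrays and in the authors' processed values. In those processed values miR-487b-3p was the 1 region miRNA called lower, at -1.98, and 3 were called higher. Over all probes 26 were called lower and 55 higher with them. Both comparisons use the same C2C12-PR array, so a single high or low spot there enters both, and its part in these results was not tested.

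For W4-08-PR over C2C12-DF no region miRNA was called in either direction among 21 probes with a ratio or bound, where 1.36% of 440 probes were called in each direction. Bounds reached at most 0.097 and -0.19, so the offset kept dim probes from a call in this comparison as well. Of the 12 region probes detected on both arrays 3 ratios were above 0 and 9 below, with a median of -0.11 against -0.03 over all probes, and 0 of 12 lay beyond 2 technical SD. miR-3072-3p had a ratio of -0.12 ± 0.16 and miR-487b-3p of -0.10 ± 0.23 in this comparison.

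**Figure D4:**
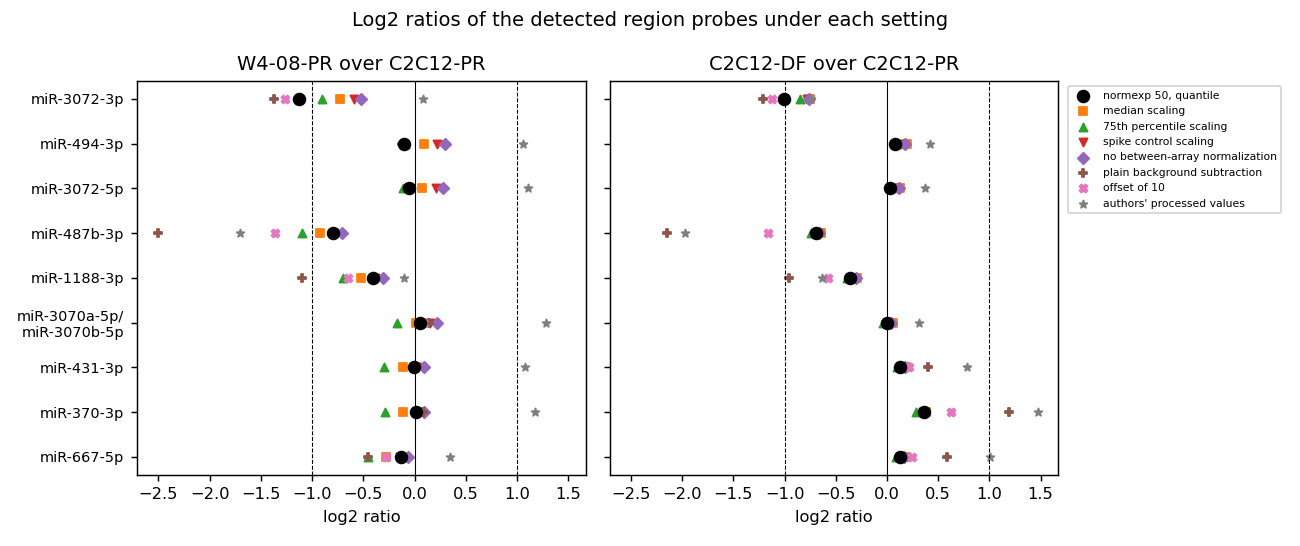
Log2 ratios of the 9 probes detected on all 3 arrays for W4-08-PR and for C2C12-DF over C2C12-PR, with the main setting as a black circle, each alternative setting as a coloured mark and dashed lines at a ratio of 1 in size. The main ratios lie between -1.13 and 0.37, and those of miR-3072-3p alone reach -1 in the main setting.

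miR-487b-3p kept ratios below 0 against C2C12-PR in all 8 settings in which it was detected on both arrays. They ran from -2.51 to -0.71 for W4-08-PR and from -2.15 to -0.64 for C2C12-DF, with 4 and 3 of the 8 at or below -1. miR-1188-3p was below 0 in 9 of 9 settings in both comparisons. The setting with detection at 3 SD repeats its main ratios, and all settings reprocess the same spots, so the settings are not independent.

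The 3 probes detected on 2 arrays and the 21 detected on 1 array follow. miR-540-3p, detected on 2 arrays, was undetected on C2C12-PR at 9.65 units, and at 16.3 on C2C12-DF and 45.4 on W4-08-PR, where it stood 7.07 SD of all blank spots, untrimmed, above background. Its sequence is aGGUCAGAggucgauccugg (chr12:109586122-109586141, + strand). W4-08-PR was 2.79-fold above C2C12-DF in units, and the bound on its log2 ratio over C2C12-PR was 0.41. miR-665-3p was at 11.5, 23.1 and 10.8 units and miR-665-5p at 9.80, 10.8 and 20.2, both undetected on C2C12-PR, so the arms of Mir665 had their highest value on different arrays.

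Of the 21 probes detected on 1 array, 13 were on W4-08-PR, 5 on C2C12-DF and 3 on C2C12-PR, at 10.1 to 21.1 units. Over all miRNA probes 197 were detected on 1 array, 129 of them (65.5%) on W4-08-PR, 39 on C2C12-DF and 29 on C2C12-PR, so the region's 13 of 21 (61.9%) was near the share of all probes. Those more than 3 SD of the trimmed blank spots above background on C2C12-PR were miR-485-5p at 21.1 units, against 4.80 on C2C12-DF and 2.85 on W4-08-PR, and miR-409-3p at 20.6, against 7.66 and 6.88. On C2C12-DF this held for miR-323-5p at 16.5 units. On W4-08-PR it held for miR-376b-3p at 20.5, miR-299a-3p at 15.7, miR-410-3p at 15.1 and miR-154-5p at 14.8. None of these was called in a comparison as processed here. With the offset of 50 a call was out of reach at this brightness. The bound of miR-485-5p for W4-08-PR over C2C12-PR was only -0.30, so the lack of a call does not show that these probes were unchanged. With plain background subtraction, miR-485-5p and miR-409-3p were called lower on both other arrays than on C2C12-PR. In the authors' processed values miR-376b-3p, miR-299a-3p, miR-410-3p and miR-154-5p were called higher on W4-08-PR than on C2C12-PR, the first 2 also than on C2C12-DF.

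Of the hairpins, 50 have a probe for each arm. Both arms were detected on at least 1 array in 6 of them, the 3p arm alone in 15, the 5p arm alone in 5 and neither in 24. Mir3072 was the only hairpin with both arms detected on all 3 arrays. Detected 5p and 3p probes numbered 8 and 17 on W4-08-PR, 6 and 11 on C2C12-DF and 5 and 7 on C2C12-PR. On all 3 arrays 3 and 6 were detected. The same counts were not taken for the other miRNA probes, and many detections were on 1 array near the limit. No preference of the region for 1 arm can therefore be read from these counts. miR-494-5p was undetected at 3.19, 6.70 and 5.72 units while its 3p arm was detected on every array, and miR-487b-5p was undetected at 7.88, 9.41 and 6.60. A probe's brightness also depends on its sequence, so the arms were compared by detection and not by level. The Mir494 hairpin is shown with its arms in capitals (chr12:109715318-109715402, + strand).
Mir494: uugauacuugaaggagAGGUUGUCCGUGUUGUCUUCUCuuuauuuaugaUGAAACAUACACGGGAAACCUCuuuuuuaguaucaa

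Region miRNAs detected on all arrays had more G and C than those detected on none. The 7 with a sequence that were detected on all arrays had a median G and C content of 68.0% (range 45.5 to 77.3%), those detected on 1 or 2 arrays 54.5%, and the 68 with a sequence that were detected on none 45.5% (23.8 to 68.2%). The exception among the 7 was miR-494-3p, at 45.5%. Detection also went with base composition outside the region, where probes detected on all arrays had a median of 54.5% against 50% for all other probes with a sequence. The part of base composition in the detection of these miRNAs was not tested.

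Within classes of like composition the region also had the lower share, given here as counts with no test. Between 45 and 55% G and C, 7 of 40 region miRNAs (17.5%) were detected on at least 1 array against 137 of 350 others (39.1%). Between 55 and 65% the counts were 8 of 16 and 123 of 198 (62.1%), and at 65% or more 9 of 13 (69.2%) and 73 of 90 (81.1%). Between 35 and 45% they were 6 of 27 (22.2%) and 67 of 218 (30.7%). The classes above 55% hold few region miRNAs.

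**Figure D5:**
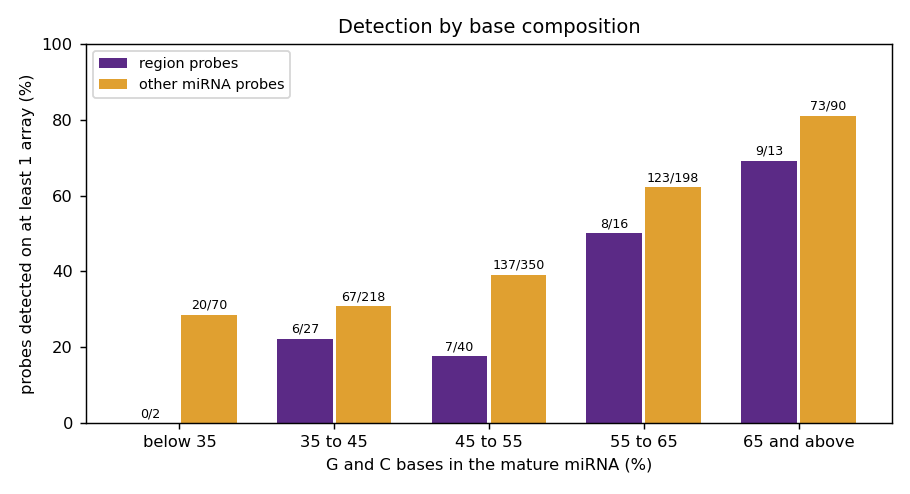
Percent of miRNAs detected on at least 1 array by G and C content of the mature sequence (percent classes), for the region and for all other miRNAs with a sequence, with the number detected and the number in each class. In both sets the share is highest at 65% or more, and the region's bar is the lower one in every class shown.

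A pair of detected members cannot be fully told apart by sequence. miR-299a-3p and miR-299b-3p come from hairpins on opposite strands that overlap by 49 bases, and the first 18 bases of their mature sequences are the same.
miR-299a-3p (+ strand): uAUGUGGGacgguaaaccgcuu
miR-299b-3p (- strand): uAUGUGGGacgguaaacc
Both were detected on W4-08-PR alone, at 15.7 and 10.1 units, and are 2 of the 13 detected on that array alone. Mir136 with Mir3071 and Mir337 with Mir3544 overlap in the same way, by 62 and 61 bases.

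The labelled cell type was checked against miRNAs of muscle and of other cells. Of 9 probes of muscle miRNAs 4 were detected on at least 1 array and 3 on all, and miR-206-3p was at 54.4, 218.6 and 1917 units. miR-1a-3p was undetected on C2C12-PR and C2C12-DF, at 2.76 and 10.3 units, and at 31.3 units on W4-08-PR. The summed brightness of the list was 109, 392 and 3640 units. None of 10 epithelial probes was detected, and 1 of 4 for liver and endothelium. Of 7 blood probes 3 were detected on at least 1 array and 0 on all, with sums of 78.4, 38.6 and 35.04 units. The brightest of them was miR-144-3p, at 48.3 units on C2C12-PR and undetected on the other arrays. Of 10 neural probes 6 were detected on at least 1 array and 2 on all, with sums of 137, 125.8 and 189.6 units. The 2 detected on all were miR-128-1-5p and miR-128-2-5p, the latter at 74.99, 54.66 and 102.82 units. miR-124-3p and miR-9-5p were undetected on every array. On C2C12-PR, unlike the other arrays, the neural sum was above the muscle sum, and miR-128-2-5p was brighter there than miR-206-3p. The part of other cell types in the region's values was not tested.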

How the data were processed

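Each of the 3 cell states had its total RNA read on 1 single-colour 3D-Gene array from Toray. The RNA kit is named as miRNeasy in the sample descriptions and as Isogen in the study's methods. The authors deposited the raw intensity of all 3200 spots per array, with no background subtracted, and a processed value for detected probes. These processed values differed from the deposited table by at most 4e-06 and were used as an alternative only. Scanner settings are not given in the sources used here.

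Intensities were corrected with normexp (limma 3.58.1, R 4.3.3, offset 50, trimmed blank mean as background), quantile-normalized over 1265 miRNA probes and put on the log2 scale. Other steps ran in Python 3.11.15 with pandas 2.3.3. The code was tested on simulated data. That test required recovery of large changes in bright probes only, and so says little about dim ones. With 1 array per condition there is no test, and the number of arrays limits the precision. A probe undetected on 1 array of a pair gives only a bound, measured against the higher of that array's lowest detected value and its own. Alternatives were other scalings, plain subtraction, an offset of 10, the processed values and other detection limits. Named were members detected on all arrays, those at least 3 SD of the trimmed blank spots above background on 1, every called member and miR-487b. The members, lists and alternatives were chosen with earlier results of these data known. Sequences and gene order came from RefSeq (GRCm38.p6).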

Additional observations from a re-analysis of the deposited data

How the results depend on the processing

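No paired analysis was possible because each condition has 1 array. For W4-08-PR over C2C12-PR, the count of region miRNAs called lower was 0 with median scaling, spike control scaling or no normalization between arrays, 5 with plain background subtraction and 2 with an offset of 10. The count called higher was 1 with plain subtraction and 11 with the authors' processed values, and the median ratio was -0.29 with 75th percentile scaling, 0.092 with no normalization and 1.06 with the authors' values. Over all miRNA probes 31 were called lower and 23 higher with plain subtraction. With an offset of 10, 13 of all probes were called lower, and with the authors' values 235 were called higher. For C2C12-DF over C2C12-PR, the count called lower was 0 with median, 75th percentile and spike control scaling and with no normalization, 4 with plain subtraction and 2 with an offset of 10. There 2 were called higher with plain subtraction and 3 with the authors' values, whose median ratio was 0.37. Over all miRNA probes in this comparison 36 were called lower and 28 higher with plain subtraction. With an offset of 10, 22 of all probes were called lower, and with the authors' values 55 were called higher. Under median, 75th percentile and spike control scaling and no normalization 16, 17, 17 and 16 of all probes were called lower. For W4-08-PR over C2C12-DF, 1 was called higher and 3 lower with plain subtraction, and 4 higher with the authors' values, whose median ratio was 0.58. Over all miRNA probes 30 were called higher and 26 lower with plain subtraction, and 157 higher with the authors' values. In the authors' values the median of all probes moved to 1.04, 0.40 and 0.71 in these comparisons. The ratio of miR-3072-3p for W4-08-PR over C2C12-PR reversed to 0.079 in them, and the cause was not tested.

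The number detected on C2C12-DF was 11 (10.5%) at 3 SD of the trimmed blank spots and 9 (8.57%) at the 99th percentile of all blank spots. Over all miRNA probes the shares there were 22.6% and 21.9%. On W4-08-PR it was 13 (12.4%) at 3 SD, 15 (14.3%) at a common height and 10 (9.52%) at the 99th percentile. Over all miRNA probes the shares on W4-08-PR were 28.2%, 32.9% and 25.9%. The 9 probes detected on all arrays became 6 at 3 SD, 7 at a common height and 6 at the 99th percentile. miR-487b-3p and miR-667-5p were not among them at any of these limits. miR-370-3p was kept at the common height but not at 3 SD or the 99th percentile. Signal over background limits most members: an undetected probe has only an upper limit, and a level below it was not measured.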

Other observations

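The region also holds miRNA genes whose numbers the list leaves out, with 13 probes on the arrays. Of these 3 were detected on all arrays and 5 on at least 1. miR-1247-3p, whose gene follows Mir3072 toward Dio3, was at 130, 149 and 148 units on C2C12-PR, C2C12-DF and W4-08-PR. miR-770-3p, whose gene lies within Meg3, was at 44.4, 36.3 and 61.1 units, and miR-1906 at 22.6, 25.9 and 18.4. miR-673-5p at 20.9 units and miR-1247-5p at 12.1 were detected on C2C12-DF alone.

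Among 10 probes for miRNAs of other imprinted loci, 3 were detected on all arrays and 6 on at least 1. miR-296-5p, from the Gnas locus, was at 106, 113 and 99.2 units. miR-675-5p, which is cut from the H19 transcript, was undetected at 3.36 units on C2C12-PR, at 10.8 on C2C12-DF and highest on W4-08-PR at 31.0. H19 is known to rise in differentiating muscle cells. With 1 array per condition these values have no replicate error, and the differences were not tested.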
